A study of Mus musculus with 24 samples.

Results

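Box C/D small nucleolar RNAs (snoRNAs) were examined in laser-captured basal forebrain cholinergic neurons of mice. They were taken as all genes whose symbol starts with Snord, after the Ensembl identifiers of the count table had been matched to GENCODE M21. This gave 70 of 55414 identifiers. GENCODE M21 lists 99 Snord genes, and the 29 that are not among the identifiers, including every copy of Snord113, Snord114, Snord115 and Snord116, were not analysed here. Each library was made from about 500 neurons, recognised by antibody staining for choline acetyltransferase in the medial septum and the vertical limb of the diagonal band, of 1 male mouse at about 6 months of age. Ts65Dn mice, a model of Down syndrome, carry an additional chromosome with parts of mouse chromosomes 16 and 17, and 2N mice have the normal complement. Dams ate a control diet with 1.1 g/kg choline chloride or a supplemented diet with 5.0 g/kg from conception to weaning, and after weaning all animals ate the control diet. By the labels, 12 libraries came from control-diet dams (6 of each genotype) and 12 from supplemented dams (8 Ts65Dn and 4 of 2N mice), although the series' design text gives a size of 6 for every group. Libraries are named here by group and a replicate number that carries no other meaning.

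Box C/D snoRNAs are short nucleolar RNAs that form a particle with fibrillarin, Nop56, Nop58 and Snu13. Most of them base-pair with ribosomal RNA and direct fibrillarin to methylate the 2′-hydroxyl of a defined nucleotide, while a few, such as U8 (Snord118), U13 (Snord13) and U22 (Snord22), are needed for processing or other modification of the ribosomal RNA precursor. In mammals nearly all are cut from the introns of host genes, many of which encode ribosomal proteins or are noncoding genes known mainly as snoRNA carriers, such as Gas5 and Snhg1. They are named after 2 short boxes, box C near the 5′ end and box D near the 3′ end, which bind the particle's proteins.

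The sequences of 4 of the 5 Snord genes that passed the test in a comparison, of Snord15b, which held most of the counts, and of Snord80 and Snord89, which moved differently, are given 5′ to 3′ from the GENCODE M21 transcripts (build GRCm38). Capitals mark a box C core (TGATGA starting in the first 21 bases) and a box D (CTGA starting in the last 20 bases), searched on the RNA strand only and free to overlap other matches.
Snord15a: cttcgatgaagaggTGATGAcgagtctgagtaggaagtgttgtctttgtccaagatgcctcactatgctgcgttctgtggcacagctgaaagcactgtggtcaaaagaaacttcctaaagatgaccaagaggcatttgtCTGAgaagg
Snord15b: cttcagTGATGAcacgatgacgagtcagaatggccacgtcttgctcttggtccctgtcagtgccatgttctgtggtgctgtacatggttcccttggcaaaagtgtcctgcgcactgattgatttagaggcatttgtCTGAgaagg
Snord17: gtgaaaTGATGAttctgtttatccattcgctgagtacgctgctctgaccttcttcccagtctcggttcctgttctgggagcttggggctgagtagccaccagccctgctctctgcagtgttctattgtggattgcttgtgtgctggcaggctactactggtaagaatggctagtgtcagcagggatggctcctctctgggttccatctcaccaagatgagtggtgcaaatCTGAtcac
Snord21: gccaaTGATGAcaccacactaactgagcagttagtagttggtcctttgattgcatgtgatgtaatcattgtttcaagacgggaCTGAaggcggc
Snord22: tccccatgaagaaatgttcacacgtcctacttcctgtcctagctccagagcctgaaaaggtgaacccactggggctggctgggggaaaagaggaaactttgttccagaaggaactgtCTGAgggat
Snord80: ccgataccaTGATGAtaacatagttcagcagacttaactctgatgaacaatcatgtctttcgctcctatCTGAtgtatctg
Snord89: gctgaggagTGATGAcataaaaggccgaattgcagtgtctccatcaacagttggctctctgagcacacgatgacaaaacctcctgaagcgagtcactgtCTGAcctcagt
Of the 70 Snord genes, 45 (64.3%) held the box C core and 68 (97.1%) the box D in these windows. Among 37 Snora genes, which encode the other main class of snoRNAs (box H/ACA) and guide pseudouridylation, 0 held the first and 5 (13.5%) the second. Snord22 had no exact TGATGA in its window. Snord15a and Snord15b, from 1 host gene, were identical at 64.5% of aligned positions, and their longest shared run was 21 bases, less than the 50 bases of a read. Snord1b and Snord1c, at 97.4% identity with a shared run of 46 bases, were the closest of 8 aligned pairs, and reads could be split between them.

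The members measured 64 to 238 bases (median 78) and lay on 16 chromosomes. With reads of 50 bases, the effective length in the deposited files was the gene's length minus 50 for all 70, so a short snoRNA offered few positions to a read. A host gene on the same strand contained 67 of them, and 3 (Snord118, Snord104 and Snord13) had none. Introns alone held 37, and 30 lay inside (26) or across (4) an exon of at least 1 host transcript, usually one annotated as a retained intron. Reads over such a member can be given by the authors' quantification to the snoRNA or to the host. Grouping by host gave 50 loci, of which 5 held 3 members (Gas5, 2410006H16Rik, Rpl23a, 1810032O08Rik and Gm45713, which contains Rpl13a) and 10 held 2. None lay in the segments that are triplicated in Ts65Dn, although 2 were on chromosome 16 and 4 on chromosome 17.

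Total counts ran from 4688258 to 13443438 per library. The library labelled control-diet Ts65Dn 3 went against its cell type: 7 of 8 cholinergic marker genes, Chat included, were at 0, the 8 summed to 1.71 CPM (a gene's count scaled by the library's total) against 22.9 to 471 in the other libraries, and 3 glutamatergic markers summed to 711 CPM against 5.91 to 155. Nearly all of the 711 CPM came from 1 marker, Slc17a7 (705.4 CPM). The others, Slc17a6 (1.49 CPM) and Neurod6 (4.48 CPM), were within the range of the other libraries. Control-diet Ts65Dn 3 also had the fewest genes with a count, 13125, and supplemented Ts65Dn 7 had 13164. Results that rest on control-diet Ts65Dn 3 are given with and without it. Markers of other cells were present throughout. Summed oligodendrocyte markers (7 genes) ranged over 3099 to 3932 CPM in 2N and 633.1 to 3819 CPM in Ts65Dn libraries on the control diet, and 2788 to 3369 and 2221 to 3808 CPM with supplementation. For astrocyte markers (7 genes) these ranges were 1830 to 2598, 1741 to 2206, 1598 to 1868 and 975.1 to 2109 CPM. Their part in the results was not tested. Because about 500 neurons were pooled per library, fewer cells of a type and less RNA per cell cannot be told apart.

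Summed over the 70 genes, box C/D snoRNAs took very different shares of the libraries, and the high shares were found in Ts65Dn libraries. In control-diet 2N libraries the share was lowest at 0.00306%, had a median of 0.0101% and was highest at 0.0584%. The 4 supplemented 2N libraries had 0.0192%, 0.0184%, 0.0127% and 0.0175%. In control-diet Ts65Dn libraries the lowest, median and highest shares were 0.0157%, 0.0460% and 0.543%, the last in control-diet Ts65Dn 3. Supplemented Ts65Dn libraries fell into 2 levels, with 0.265% to 0.481% in replicates 1, 3, 4, 6, 7 and 8, and 0.0104% and 0.0260% in replicates 2 and 5. So 7 libraries stood above all the others, of which the next highest, control-diet Ts65Dn 6, had 0.101%, and replicates 2 and 5 of the supplemented Ts65Dn group were within the range of the 2N libraries. Cell-type markers split the same way: the 8 cholinergic markers summed to 312.4 and 278.2 CPM in supplemented Ts65Dn 2 and 5 against 65.3 to 216.3 CPM in the 6 others, Chat was at 61.9 and 43.9 CPM against 0.392 to 9.80 CPM, and the 7 astrocyte markers summed to 1820 and 2109 CPM against 975.1 to 1701 CPM. Their part in the difference was not tested.

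The group means were 0.0177% ± 0.0208 (SD, n = 6) in control-diet 2N, 0.128% ± 0.206 (n = 6) in control-diet Ts65Dn, 0.0170% ± 0.00289 (n = 4) in supplemented 2N and 0.279% ± 0.179 (n = 8) in supplemented Ts65Dn. The spread of both Ts65Dn groups was thus large against their means. The control-diet Ts65Dn mean was 0.0451% without replicate 3. Snord15b alone held 51.2% of all Snord counts, and without it the share in the 7 libraries was 0.0843% to 0.256% against 0.00306% to 0.0959% in the rest, so the order then overlapped.

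**Figure D1:**
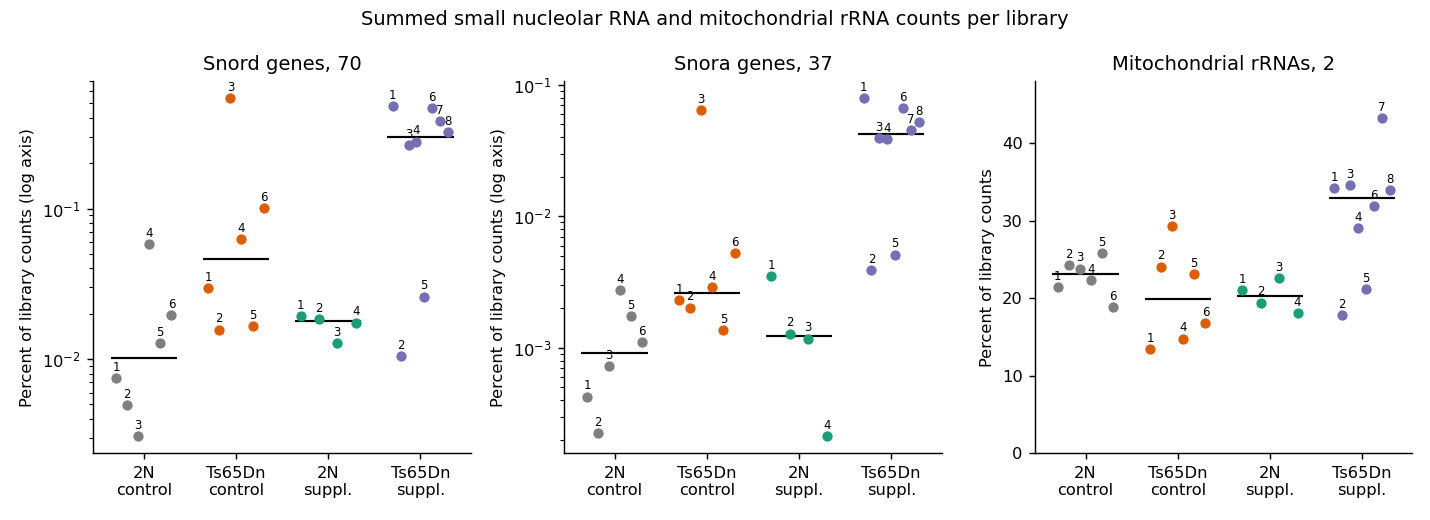
Percent of each library's counts taken by 70 Snord genes, 37 Snora genes (both on log axes) and 2 mitochondrial rRNAs, by group. Points are libraries with their replicate number and lines are group medians. In the Snord panel control-diet Ts65Dn 3 and supplemented Ts65Dn 1, 3, 4, 6, 7 and 8 lie above all other libraries.

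Other RNA classes moved with this sum. In the same 7 libraries Snora genes took 0.0388% to 0.0795% of counts against at most 0.00529% elsewhere, and the 2 mitochondrial rRNAs took 29.0% to 43.3% against 13.5% to 25.8%. The summed host genes took 0.192% to 0.327% there and 0.405% to 0.772% in the other 17 libraries. Across 24 libraries Spearman's rho of the Snord share was 0.856 with the Snora share, 0.788 with the share of spliceosomal RNA genes, −0.539 with total counts and 0.386 with mitochondrial rRNA. All shares have the library total as denominator, and the part of these differences in the results below was not tested.

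The number of members seen did not simply follow the sum. Supplemented Ts65Dn 6 had counts for 62 of 70 Snord genes, whereas control-diet 2N 3 had counts for 21. Supplemented Ts65Dn 7, with a share of 0.382%, had counts for 43, fewer than control-diet 2N 4 (47) and control-diet Ts65Dn 4 (44). Over all libraries 68 were seen at least once, and Snord1a and Snord45b were at 0 in all 24. Of the 55 members whose median was above 0 in some group, the group with the highest median was supplemented Ts65Dn for 45, control-diet Ts65Dn for 10 and a 2N group for 0. A single library, supplemented Ts65Dn 6, held the highest CPM of 33 of the 68. It also had the most genes with a count of any library, 22694. For the highest group median and the highest library, the shares over all genes were not determined.

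By level per length (mean CPM per 100 bases over 24 libraries) the order was Snord15b 486.9, Snord21 120.6, Snord99 92.0, Snord87 55.7, Snord89 36.4, Snord22 36.1, Snord15a 34.7, Snord17 27.4, Snord32a 20.7, Snord55 19.5, Snord83b 16.5 and Snord12 14.0. These means were set by few libraries, so neighbours in the order were not distinguishable: Snord21, next after Snord15b, ranged from 0 CPM in 5 libraries to 691 CPM. On the deposited TPM scale (transcripts scaled by effective length) Snord99 was ahead of Snord21. Snord15b was the largest member in each of the 7 high libraries, with 45.1% to 73.6% of the Snord counts. In the 17 others it held at most 14.3%, and Snord99, Snord17 or Snord89 was the largest.

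**Figure D2:**
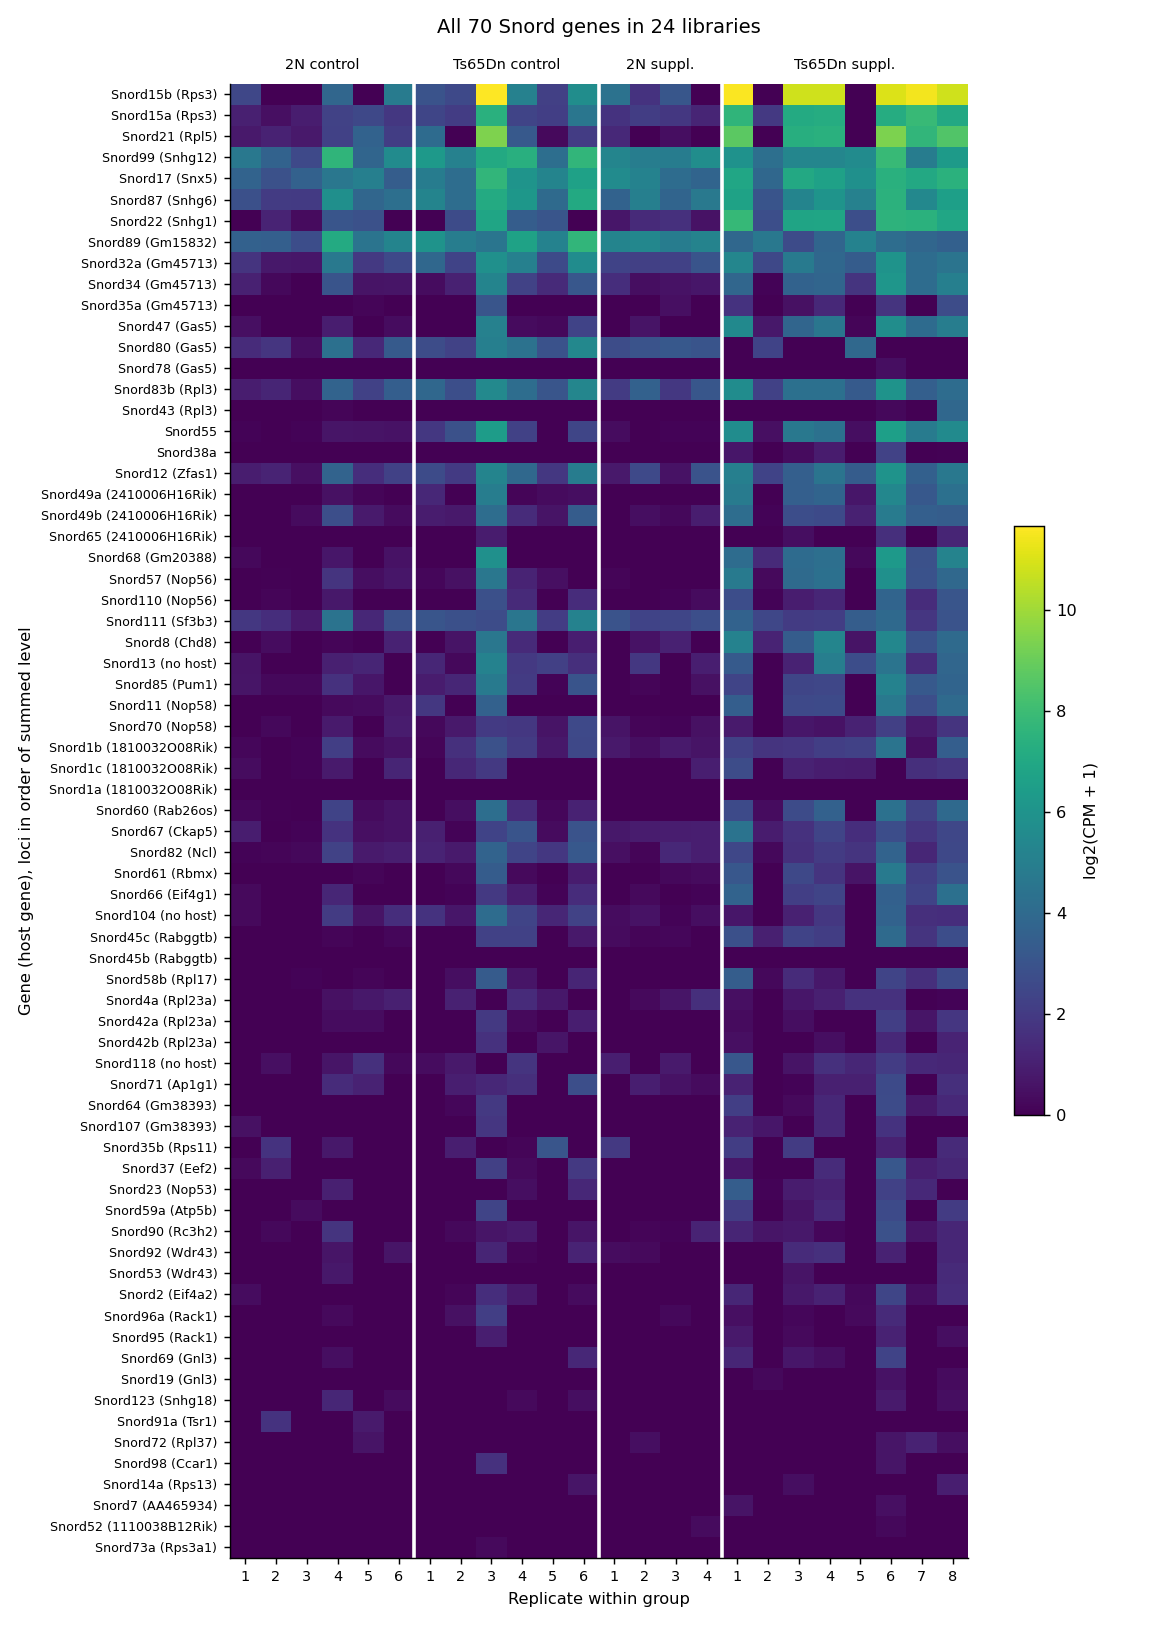
Level of all 70 Snord genes in 24 libraries as log2(CPM + 1), with loci ordered by summed level and the host gene or its absence in brackets for 68 of the rows. Columns are replicates within the 4 groups. The columns of control-diet Ts65Dn 3 and supplemented Ts65Dn 1, 3, 4, 6, 7 and 8 are brighter for most rows, and Snord80 and Snord89 are exceptions.

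At the Rps3 locus, Snord15b, which guides methylation of 28S rRNA, was at 0 to 28.1 CPM in control-diet 2N libraries (median 2.30) and at 20.1, 2.31, 7.74 and 0 CPM in supplemented 2N libraries. Control-diet Ts65Dn libraries had 3.63 to 3261 CPM (median 20.2), and supplemented Ts65Dn libraries 0 to 3148 CPM (median 1820). Each of the 7 high libraries had at least 1804 CPM and no other more than 51.2. Snord15a, in another intron of Rps3, followed the same libraries, with 131.6 to 229.3 CPM in the 7 and at most 22.9 in the rest.

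The 3-member loci were uneven within themselves. In Gas5, a noncoding snoRNA host, Snord47 was at 13.1 to 52.1 CPM in the 7 libraries and at most 4.10 elsewhere, Snord78 was seen in 1 library (0.35 CPM), and Snord80 took another course that is described below. In 2410006H16Rik, Snord49a was at 8.24 to 41.5 CPM in the 7 and at most 1.46 elsewhere. In Rpl13a, the ribosomal protein gene inside Gm45713, Snord32a had medians of 2.64 CPM in control-diet 2N, 23.2 CPM in control-diet Ts65Dn and 19.04 CPM in supplemented Ts65Dn, and was at 4.17, 3.64, 3.84 and 7.29 CPM in supplemented 2N. The loci Rpl23a and 1810032O08Rik were low, and their members with the highest means were Snord4a, with at most 2.21 CPM in any library, and Snord1b, with at most 21.6.

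The first comparison asked how Ts65Dn and 2N differed on the control diet. Snord55, Snord17 and Snord15a were higher in Ts65Dn, and these calls did not hold without some single libraries. A filter on low counts left 49 of 70 Snord genes among 19967 tested genes. Because 49 includes members that passed through the libraries in which they were high, counts over them describe these libraries and are no support for a difference: with the control-diet groups alone, 17 passed the filter. Of the 49, 3 rose in Ts65Dn and 0 fell (edgeR quasi-likelihood test, adjusted p under 0.05), while 0.29% of all tested genes rose and 0.0451% fell. At an unadjusted p under 0.05 there were 23, against 10.9% of all tested genes. The fold change was positive for 47 of 49 and for 49% of all tested genes, with a median log2 fold change of 2.42 against −0.02 over all genes. DESeq2 called 6 higher, among 205 higher of all tested genes against 58 by edgeR. Limma-voom and limma on log2(TPM + 1) called 0, among 2 and 0 higher of all tested genes.

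Snord55 was at 0 to 0.57 CPM in control-diet 2N libraries (median 0.28). Control-diet Ts65Dn libraries had 0 to 85.5 CPM (median 4.15), with 5 of 6 above every 2N library and replicate 5 at 0. Its log2 fold change was 6.06 (SE 1.29, adjusted p = 0.0205 by edgeR).

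Snord17, a long member from an intron of the sorting nexin gene Snx5, was at 6.39 to 31.5 CPM in control-diet 2N (median 11.7) and 16.8 to 204.3 CPM in control-diet Ts65Dn (median 50.5). In 4 of 6 Ts65Dn libraries it was above every 2N library, and the groups overlapped. The log2 fold change was 2.31 (SE 0.54, adjusted p = 0.0411 by edgeR). Snord15a had 0.41 to 4.85 CPM (median 1.86) in control-diet 2N and 3.27 to 171.3 CPM (median 4.39) in control-diet Ts65Dn. Only replicates 3 and 6 were above all 2N libraries, and the log2 fold change was 4.10 (SE 0.98, adjusted p = 0.0472 by edgeR).

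The calls depended on several single libraries. Without the library labelled control-diet Ts65Dn 3, 0 Snord genes passed by edgeR (8 at an unadjusted p under 0.05), and 4 of all tested genes were higher. The log2 fold changes by edgeR were then 3.53 for Snord55 (adjusted p = 0.317), 1.57 for Snord17 (adjusted p = 0.317) and 1.67 for Snord15a (adjusted p = 0.489). The calls also went to 0 without control-diet 2N 1, 2 or 3, and were 1 without control-diet 2N 5 or 6 or control-diet Ts65Dn 6. In those fits 17 to 37 of all tested genes were higher, against 58 with all libraries. Among the 4 against 4 animals whose identifier starts with 17, the only such prefix with both groups and one that includes control-diet Ts65Dn 3, the differences in mean log2(CPM + 1) were 2.30 for Snord55, 2.23 for Snord17 and 2.22 for Snord15a, against 2.31, 1.90 and 1.99 over all animals. With the prefix as a factor in the edgeR fit, Snord55 was still called (5.65, adjusted p = 0.0487), and Snord17 (2.09, adjusted p = 0.0882) and Snord15a (3.65, adjusted p = 0.147) were not. Snord15b, at 6.48 (SE 1.60), narrowly missed the threshold (adjusted p = 0.0549 by edgeR), and Snord90 (−0.18, SE 1.85) and Snord118, the U8 RNA (−0.06, SE 1.90), were the 2 with a negative value.

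The second comparison set Ts65Dn against 2N among animals of supplemented dams. Snord55, Snord22, Snord15a and Snord21 were higher in Ts65Dn, mainly in 6 of its 8 libraries. Of 49 tested Snord genes 4 rose and 0 fell by the same test, while 0.165% of all tested genes rose and 0.015% fell. At an unadjusted p under 0.05 there were 32, against 9.49% of all tested genes. The fold change was positive for 47 and for 54% of all tested genes, with a median log2 fold change of 5.11 against 0.09 over all genes. In supplemented 2N libraries 11 of the 49 were at 0 throughout, and with those at a lower bound, taken from a floor of 3 counts over the 4 libraries without TMM scaling, the median was 4.02. DESeq2 called 21 higher, which included all 4, but it called 374 of the 19967 tested genes higher, against 33 by edgeR. Limma-voom called 3 others higher (Snord68, Snord60 and Snord58b) and Snord80 lower, and limma on log2(TPM + 1) called Snord68, Snord49a and Snord55 higher. Over all genes limma-voom called 24 higher and 31 lower, and limma on log2(TPM + 1) 16 higher and 22 lower.

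Snord55 was at 0.30, 0, 0.10 and 0.09 CPM in supplemented 2N libraries and at 0.37 to 95.8 CPM (median 26.3) in supplemented Ts65Dn libraries. All 8 Ts65Dn libraries were above all 4 of the 2N libraries, but replicates 2 and 5 only by a little, at 0.39 and 0.37 CPM. These were 4 counts each, as in supplemented 2N 1, so for both the separation was within counting error. The log2 fold change was 8.20 (SE 1.70, adjusted p = 0.0229 by edgeR).

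Snord22 (U22), which is needed for 18S rRNA maturation and lies in the noncoding host Snhg1, was at 0.65, 1.60, 2.10 and 0.50 CPM in supplemented 2N. In supplemented Ts65Dn it was at 5.88 to 221.5 CPM (median 116.7), again with every library above the 2N group and with replicates 2 and 5 lowest. Snord22 lies inside an exon of 5 Snhg1 transcripts, and its counts in replicates 2 and 5 were fractional (60.79 and 64.24). How the division of reads between Snord22 and Snhg1 affected this separation was not tested. The log2 fold change of Snord22 was 6.99 (SE 1.5, adjusted p = 0.0298 by edgeR). Such a complete separation was found upward for 0.14% of all tested genes, and among Snord genes for these 2 and for Snord68, a 28S rRNA guide. For Snord55 and Snord68 it was within counting error, as their lowest Ts65Dn libraries held 4 and 2.07 counts.

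Snord68 did not pass the test (adjusted p = 0.0899 by edgeR). It was at 0 in all 4 supplemented 2N libraries and at 0.19 to 76.0 CPM in supplemented Ts65Dn (median 16.0). Pooled over libraries it was at least 267-fold higher in Ts65Dn, with the 2N group set to 3 counts in all, and replicates 2 and 5 had 1.66 and 0.19 CPM. Others of the 11 members that supplemented 2N libraries held at 0 were Snord49a, at least 188-fold higher in Ts65Dn by the same bound, Snord60, at least 97.1-fold, and Snord58b, at least 40.6-fold. In each of these, at least 1 supplemented Ts65Dn library was also at or near 0, and none of the 3 passed the edgeR test.

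Snord15a was at 2.23, 3.28, 2.66 and 1.33 CPM in supplemented 2N and at 0 to 229.3 CPM (median 142.9) in supplemented Ts65Dn. Replicates 2 and 5 had 2.80 and 0 CPM and overlapped the 2N group, and the other 6 were above it. The log2 fold change was 6.14 (SE 1.27, adjusted p = 0.0229 by edgeR). Snord21, a 28S rRNA guide from the ribosomal protein gene Rpl5, was at 1.51, 0, 0.34 and 0 CPM in supplemented 2N. It was at 159.7 to 658.6 CPM in the same 6 Ts65Dn libraries and at 0 in replicates 2 and 5. Its log2 fold change was 9.22 (SE 2.00, adjusted p = 0.0298 by edgeR).

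The number of calls depended on single libraries here too. Without any single supplemented 2N library it was 0, with 0 to 3 higher of all tested genes. In those fits 32 or 33 members were still at an unadjusted p under 0.05. The number was 1 without supplemented Ts65Dn 6 and 2 without supplemented Ts65Dn 1, with 13 and 15 higher of all tested genes. It was 7 without supplemented Ts65Dn 2 or 5, with 64 and 58 higher of all tested genes. With supplemented Ts65Dn 2 and 5 both left out, a setting chosen after the data were seen, 10 members were higher and Snord80 lower. In that fit 106 of all tested genes were higher and 44 lower, against 33 and 3 with all libraries. Within identifier prefix 16 (2 against 2), the differences in mean log2(CPM + 1) were 5.60 for Snord55, 6.38 for Snord22, 6.00 for Snord15a and 8.30 for Snord21, against 3.92, 5.04, 4.03 and 5.69 over all animals. Prefixes 14 and 15 held 1 supplemented 2N library each, with differences of 5.29 and 2.49 for Snord55, 7.08 and 3.43 for Snord22, 5.95 and 1.97 for Snord15a, and 7.42 and 3.68 for Snord21, and prefix 17 held none.

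**Figure D3:**
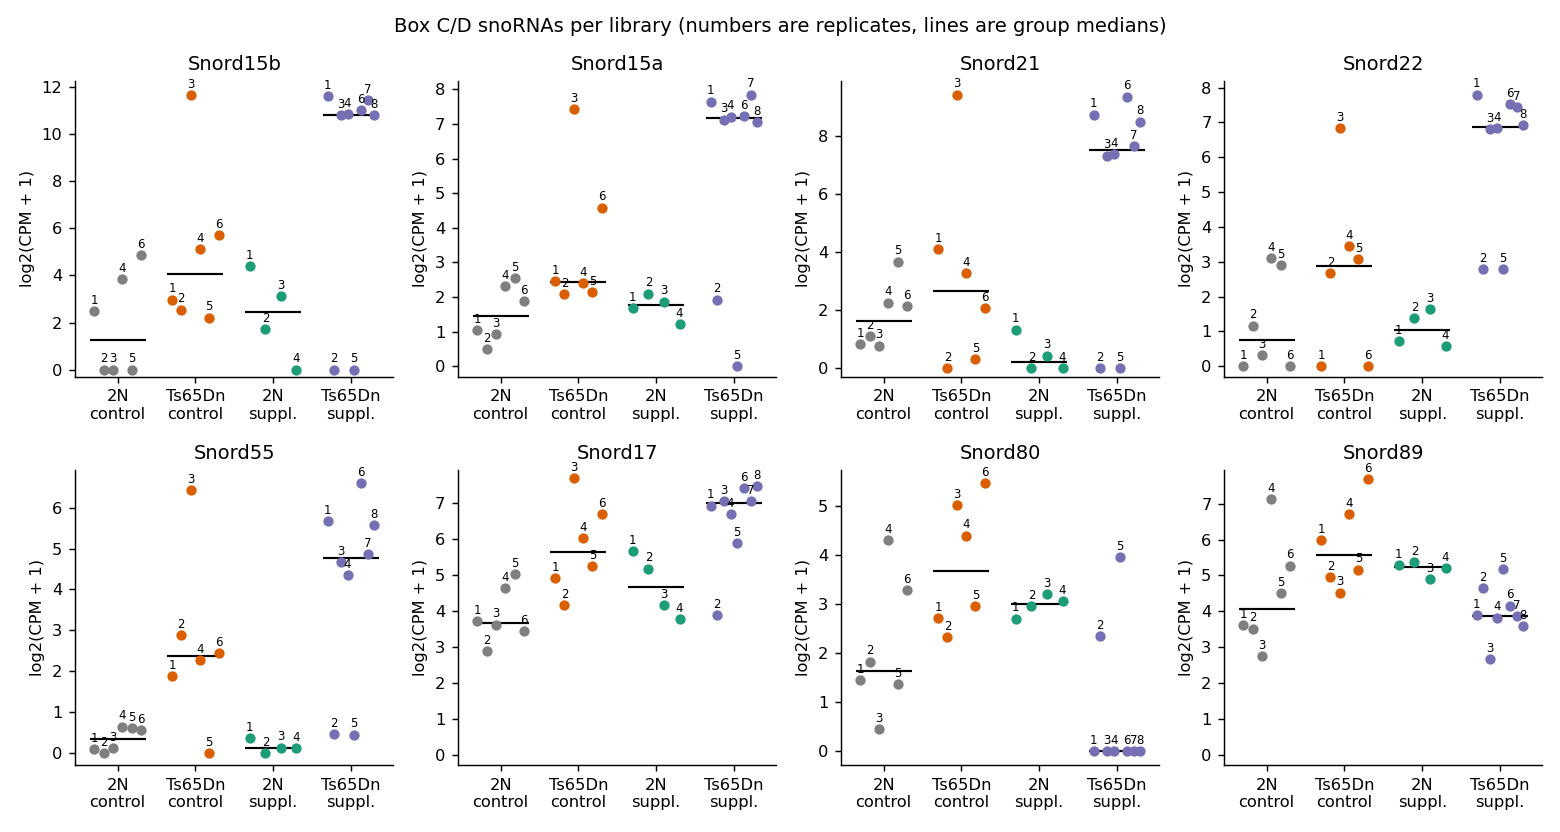
Level of 8 Snord genes as log2(CPM + 1) in each library, by group. Numbers are replicates and lines are group medians. Snord15b, Snord15a, Snord21, Snord22, Snord55 and Snord17 are high in control-diet Ts65Dn 3 and in 6 of 8 supplemented Ts65Dn libraries, whereas Snord80 is at 0 in those 6.

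The supplemented diet was compared with the control diet within each genotype. In Ts65Dn 0 Snord genes rose and 0 fell by edgeR, against 0.0501% and 0.0801% of all tested genes. There were 4 at an unadjusted p under 0.05, Snord22 and Snord15a with higher and Snord89 and Snord80 with lower values, against 9.62% of all tested genes. DESeq2 gave 1 lower (Snord89) among 92 lower of all tested genes, and limma-voom and limma on log2(TPM + 1) gave 1 lower each (Snord80) among 2 and 5. The median log2 fold change over the 49 was 1.13 against 0.04 over all genes. This comparison also depended on control-diet Ts65Dn 3: without it Snord68, Snord21, Snord15b, Snord22 and Snord15a were higher and Snord89 lower. In that fit 60 of all tested genes were higher and 20 lower.

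Snord22, whose values in supplemented Ts65Dn are given above, was at 0 to 113.7 CPM in control-diet Ts65Dn (median 6.41), and the log2 fold change of supplemented over control diet was 2.51 (SE 0.98, adjusted p = 0.295 by edgeR). For Snord15a the same edgeR fit gave 2.01 (SE 0.85, adjusted p = 0.367) and for Snord66, a guide for 18S rRNA from the translation factor gene Eif4g1, 3.04 (SE 1.85, adjusted p = 0.674). In these 3, supplemented Ts65Dn replicates 2 and 5 were within the range of the control-diet group or, for Snord15a, below it.

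In 2N mice the diets gave 0 higher and 0 lower Snord genes by edgeR, against 0.00501% and 0% of all tested genes. At an unadjusted p under 0.05 there was 1, Snord60, against 6.92% of all tested genes. DESeq2 gave 1 lower (Snord68) among 177 lower of all tested genes, and limma-voom and limma on log2(TPM + 1) gave 0. The median log2 fold change was −0.45 against −0.06 over all genes, and −0.35 with 7 members that were at 0 in the supplemented group at their bounds and 4 members with no fold left out. Snord60, a guide for 28S rRNA within Rab26os, was at 0 to 4.02 CPM on the control diet (median 0.20) and at 0 in all 4 supplemented libraries, which is at least 10.5-fold lower when the group as a whole is set to 3 counts (edgeR adjusted p = 0.566). That bound rests mainly on control-diet 2N 4, with 35.37 counts against at most 5 in any other control-diet 2N library. Snord17 had a log2 fold change of 0.76 (SE 0.57, adjusted p = 1 by edgeR), with 49.3, 35.1, 16.7 and 12.6 CPM in the supplemented libraries. Snord61, an 18S rRNA guide, and Snord35a, a 28S rRNA guide, were at most 0.27 and 0.39 CPM in any 2N library. Snord37 and Snord68, both 28S rRNA guides, were at most 1.01 and 0.64 CPM.

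The test of whether the diet's effect differed between genotypes called 0 Snord genes higher and 0 lower by edgeR, against 0% and 0.00501% of all tested genes. There were 8 at an unadjusted p under 0.05, against 8.43% of all tested genes. DESeq2 gave 1 higher (Snord68) among 214 higher of all tested genes, and limma-voom and limma on log2(TPM + 1) gave 0. The smallest p by edgeR among higher values had Snord60 (adjusted p = 0.401), Snord22 (3.67, SE 1.56, adjusted p = 0.490) and Snord57, an 18S rRNA guide from Nop56 (5.50, SE 2.33, adjusted p = 0.490). Among lower values the edgeR fit had Snord89 (−1.86, SE 0.80, adjusted p = 0.5), Snord80 (−3.31, SE 1.92, adjusted p = 0.703) and Snord35a (−1.33, SE 2.29, adjusted p = 0.992). Without control-diet Ts65Dn 3, Snord68 and Snord21 passed as higher, among 10 higher and 2 lower of all tested genes.

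Some abundant members did not follow the 7 libraries. Snord80, a 28S rRNA guide from Gas5, was at 0.36 to 18.7 CPM in control-diet 2N (median 2.13), at 5.50, 6.80, 8.17 and 7.29 CPM in supplemented 2N and at 4.01 to 43.4 CPM in control-diet Ts65Dn (median 13.4). In supplemented Ts65Dn it was at 4.06 and 14.6 CPM in replicates 2 and 5 and had 0 counts in the 6 others, where a count of 0 allows up to 0.267 to 0.594 CPM (3 counts per library, counting error only). Control-diet Ts65Dn 3, high for most members, had 31.6 CPM of Snord80. The log2 fold change of supplemented over control diet in Ts65Dn was −3.05 (SE 1.29, adjusted p = 0.366 by edgeR), and the edgeR value for Ts65Dn against 2N with supplementation was −1.54 (SE 1.36, adjusted p = 0.919). With supplemented Ts65Dn 2 and 5 left out, chosen after the data were seen, these were −10.40 (adjusted p = 0.00126) and −8.88 (adjusted p = 0.00371), but such a fit drops the 2 libraries that had counts. For the diet in Ts65Dn the adjusted p was 0.000326 with limma-voom and 0.0258 with limma on log2(TPM + 1), and under the other settings ran up to 0.884. Snord80 lies inside an exon of 1 retained-intron transcript of Gas5, and Gas5 had a median of 62.6 CPM in supplemented Ts65Dn (lowest 12.6, highest 143.5) and 139.1 CPM in control-diet Ts65Dn.

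Snord89 was at 5.73 to 138.5 CPM in control-diet 2N (median 16.5), at 38.0, 40.7, 28.8 and 35.8 CPM in supplemented 2N and at 21.97 to 206.5 CPM in control-diet Ts65Dn (median 48.4). Supplemented Ts65Dn libraries had 5.31 to 35.2 CPM (median 13.7). The groups overlapped, and here replicates 2 and 5 were the highest of the 8. Its log2 fold change of supplemented over control diet in Ts65Dn was −1.99 (SE 0.52, adjusted p = 0.127 by edgeR). It lay below the threshold with DESeq2 (adjusted p = 0.0353), without the low-count filter (0.016) and without control-diet Ts65Dn 3 (0.0445), and was −1.2 (adjusted p = 0.701) with the identifier prefix as a factor. For Ts65Dn against 2N with supplementation it was −0.88 (SE 0.57, adjusted p = 0.79 by edgeR). Its host Gm15832 was at most 13.4 CPM.

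Snord99, a 28S rRNA guide from Snhg12, had medians of 18.9 CPM in control-diet 2N, 106.4 CPM in control-diet Ts65Dn, 34.2 CPM in supplemented 2N and 43.95 CPM in supplemented Ts65Dn. Its log2 fold changes of −0.48 to 1.2 did not pass in any of the 4 comparisons. Snord111, a 28S rRNA guide from Sf3b3, had medians of 2.32, 6.89, 5.24 and 5.70 CPM in the same order. The highest libraries for Snord111 were control-diet Ts65Dn 6 and 4, followed by control-diet 2N 4, and not the 7 libraries. Snord87 and Snord32a had high values in both sets of libraries, with Snord87 at 70.3 and 135.4 CPM in control-diet Ts65Dn 4 and 6 and at 37.5 to 181.1 CPM in the 7. The 7 libraries were recognised by the sum over members, of which Snord15b is the largest part. All 7 were above every other library in 16 of the 49 tested members. In 7 of the 49 (Snord111, Snord35b, Snord4a, Snord70, Snord71, Snord80 and Snord89) the highest library was not one of the 7. Both counts describe libraries picked by the members' own sum, and the shares over all tested genes were not determined.

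**Figure D4:**
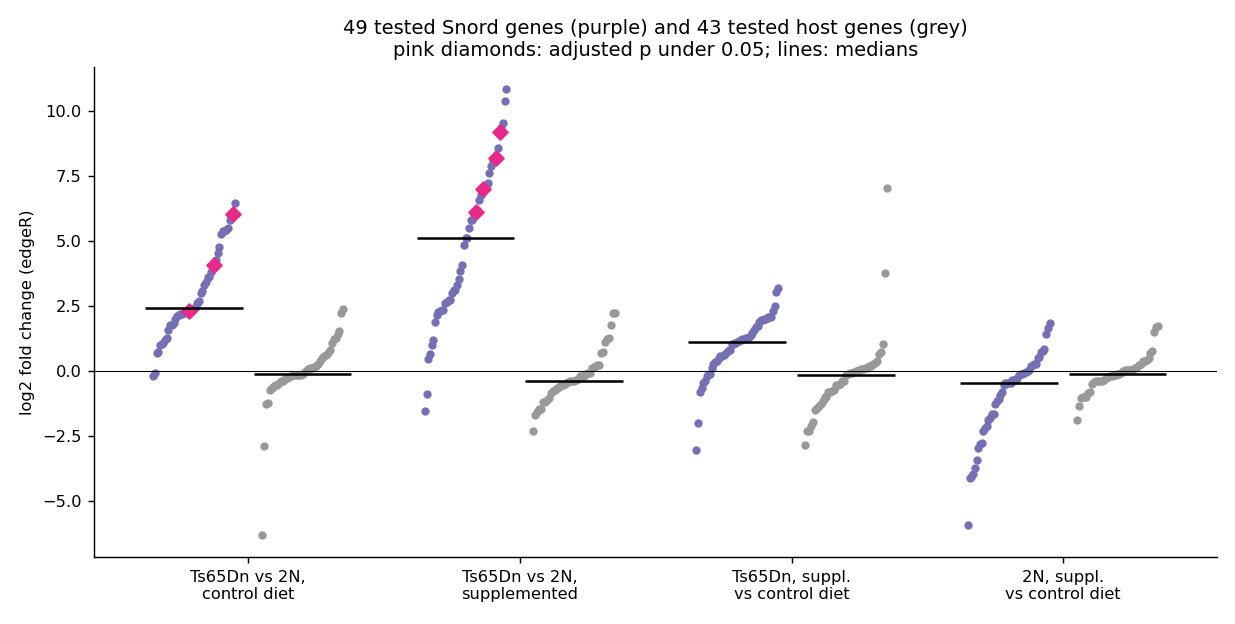
Log2 fold change by edgeR of 49 tested Snord genes (purple) and 43 tested host genes (grey) in 4 comparisons. Each point is a gene, diamonds passed at an adjusted p under 0.05 and lines are medians. The medians are 2.42 and 5.11 for Snord genes and −0.12 and −0.37 for hosts in the 2 genotype comparisons.

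Host genes did not show the same values as their snoRNAs. Of 47 hosts 46 were in the table and 43 were tested, and 0 rose and 0 fell in any of the 5 comparisons by edgeR. At an unadjusted p under 0.05 there were 8, 9, 0, 6 and 5 in the order control-diet genotype, Ts65Dn diet, 2N diet, supplemented genotype and interaction. The shares of all tested genes in that order were 10.9%, 9.62%, 6.92%, 9.49% and 8.43%. The host medians were −0.12, −0.14, −0.13, −0.37 and −0.13 on the log2 scale. In the same order, 22, 21, 5, 28 and 19 of 41 pairs with a tested host had a positive snoRNA and a negative host fold change. These counts follow the margins and do not show opposite movement within pairs. In the supplemented genotype comparison 47 of 49 tested Snord genes were positive and 30 of 43 tested hosts negative. Across the 41 pairs Spearman's rho of the fold changes was 0.01 in that comparison and 0.09 for genotype on the control diet. It is a description over pairs that share hosts and libraries.

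At the locus of Rps3, a small-subunit ribosomal protein gene, the host went the other way across libraries. Rps3 was at 11.8 to 51.9 CPM in the 7 libraries high for Snord15b and at 125.3 to 2259 CPM in the 17 others. The sum of Snord15b and Rps3 was 1837 to 3273 CPM in the 7 and 129.9 to 2310 CPM in the others. The sums overlapped only through control-diet Ts65Dn 6 (2310 CPM) and supplemented Ts65Dn 5 (2000 CPM). The next highest of the others was supplemented 2N 2 (1305 CPM). Snord15b lies inside an exon of 1 retained-intron transcript of Rps3. Snord15a, Snord17 and Snord55, also highest in the 7 libraries, lie in introns only. For Snord17 this was by little, with 102.7 CPM in supplemented Ts65Dn 4 and 102.4 in control-diet Ts65Dn 6. How the division of reads between snoRNA and host affected these values was not tested.

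Rpl5, the host of Snord21, was at 2.77 to 16.2 CPM in those 7 and at 21.7 to 678.8 CPM in the rest. Snord21 lies inside an exon of 1 retained-intron transcript of Rpl5. In the fit Rps3 and Rpl5 did not pass, with log2 fold changes of −1.51 (SE 0.65, adjusted p = 0.385 by edgeR) and −2.33 (SE 0.62, adjusted p = 0.134) for the diet in Ts65Dn.

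Snhg1, the host of Snord22, was at 9.06 to 52.4 CPM in the 7 and at 8.78 to 184.2 CPM elsewhere, and these ranges overlapped. Snx5, the host of Snord17, had medians of 30.4 CPM in 2N and 13.7 CPM in Ts65Dn libraries on the control diet, and of 34.01 and 15.9 CPM with supplementation.

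**Figure D5:**
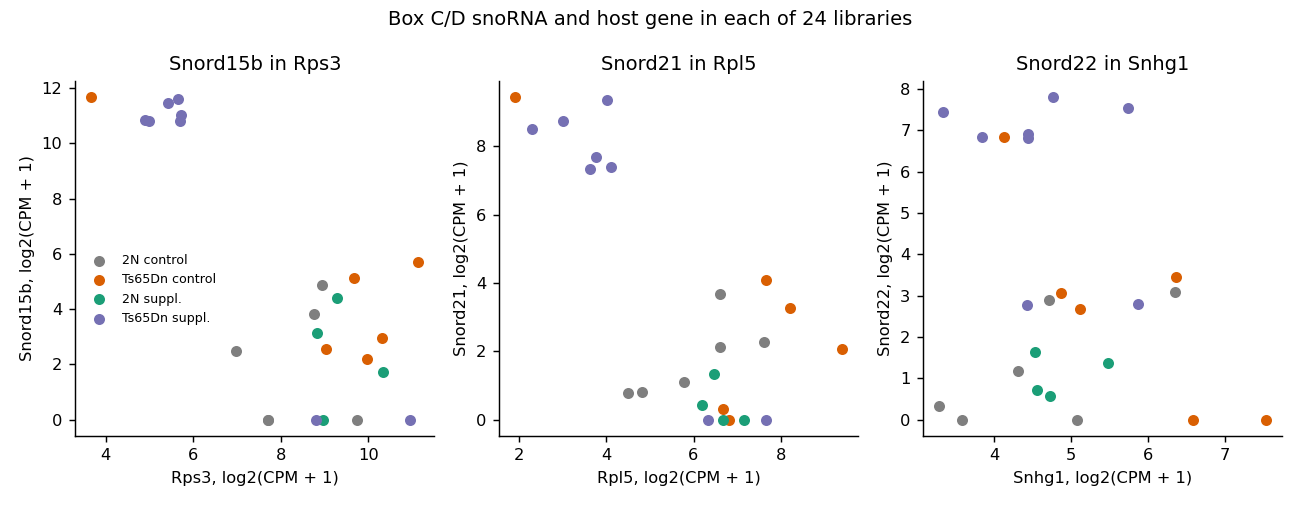
Level of 3 Snord genes (vertical) against their host genes (horizontal), both log2(CPM + 1), in 24 libraries coloured by group. In Rps3 and Rpl5 the 7 libraries with a high snoRNA have the lowest host levels, whereas in Snhg1 the host levels overlap.

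The proteins of the particle were listed separately, as 5 core proteins and 13 assembly or transport factors. All 18 were tested, and by edgeR 0 rose and 0 fell in each comparison, with 1, 4, 0, 1 and 2 at an unadjusted p under 0.05 in the order given for hosts. The shares of all tested genes at that p were 10.9%, 9.62%, 6.92%, 9.49% and 8.43%. The medians of the 18 were −0.02, −0.67, −0.06, −0.44 and −0.62. Fibrillarin (Fbl), the methyltransferase, had medians of 4.24 CPM in 2N and 16.2 CPM in Ts65Dn libraries on the control diet, and of 1.25 and 24.8 CPM with supplementation. It had log2 fold changes of 1.78 (SE 0.99, adjusted p = 0.554) and 2.14 (SE 1.13, adjusted p = 0.602) for genotype on the control and supplemented diets. Nop56, a core protein that is itself a host, had a log2 fold change of −1.26 (SE 0.37, adjusted p = 0.202) for the diet in Ts65Dn. Nop58 was between −0.75 and −0.02 and Snu13 between −0.81 and 0.37 in the 4 comparisons.

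Features of the members did not order their genotype fold changes strongly. Over the 49 tested, Spearman's rho of the fold change with length was −0.172 on the control diet and −0.231 with supplementation for genotype, and with GC content −0.024 and 0.008. For diet, the rho with length was 0.083 in Ts65Dn and 0.397 in 2N mice, and with GC content −0.03 and 0.056. Members in introns only had a median log2 fold change of 2.61 (27 tested) and those inside or across a host exon 2.26 (19 tested) for genotype on the control diet, and 5.11 and 5.83 with supplementation. The 29 tested Snora genes had medians of 3.73 and 6.71 in the same comparisons. By edgeR 1 and 2 of them were called higher, against 0.29% and 0.165% of all tested genes.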

How the data were processed

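RNA of laser-captured neurons was made into stranded total-RNA libraries and read in single reads of 50 cycles, per the labels' protocols. The submitters' processing notes name Trimmomatic 0.39, STAR, RSEM (versions of the latter pair not given in the sources used here) and the builds GRCm39 and mm10 without their roles, so no coordinates are given. The authors deposited RSEM estimated counts (expected counts, summed per gene, not normalised) and TPM values (scaled by effective length), per the file headers, for 1 library per animal. Gene lengths and effective lengths were used as deposited.

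Samples were grouped by genotype and diet from the labels, which give no litter, so p-values measure the spread between animals and ignore litter. Identifiers were matched without their version to GENCODE M21 (GRCm38): 52081 of 55414 matched, and host genes, exons and sequences came from it. The members and lists were chosen with earlier results of these data known. Estimated counts were rounded, genes kept by filterByExpr at a minimum count of 10, and all 24 libraries fitted together with TMM and edgeR 4.0.16 (R 4.3.3) by the quasi-likelihood F test, two-sided, with Benjamini-Hochberg adjustment over 19967 genes and calls at an adjusted p under 0.05. The SE of a log2 fold change is its size divided by the root of F. CPM are counts per total counts without TMM. The biological coefficient of variation was 1.4, and in a test on simulated data for the supplemented genotype comparison (18472 genes) 86% of 16-fold and 32% of 4-fold changed genes were called. Of the Snord counts above 0, 68.6% were whole, the rest being shares of reads split by RSEM. Intervals and floors cover counting error only.

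Alternatives were RLE size factors, no filter, a minimum count of 20, the compared groups alone, the animals' identifier prefix as a factor, no low-complexity libraries (control-diet Ts65Dn 3 and supplemented Ts65Dn 7), each library left out, DESeq2 1.42.0, limma 3.58.1 with voom and quality weights, and limma on log2(TPM + 1). The sequence and host gene of Snord55 are not reported here. Sequences were aligned with Biopython 1.88, and correlations computed with SciPy 1.17.1. Named were members called in any comparison, the 3 with the smallest p per direction and comparison, the 12 highest per length, the highest of each 3-member locus, hosts of the called and highest members, and Fbl, Nop56, Nop58 and Snu13.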

Additional observations from a re-analysis of the deposited data

Results flagged for a closer look

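In 52 groups of values examined (the summed share and the highest members per length, in groups of 4 to 8 libraries), 15 held a library flagged by Dixon's test. A flag means that the library's gap to its nearest neighbour was large against the group's range. For normally distributed values the test flags about 1 in 20 by chance. The CPM and shares were not log-transformed and were skewed in some groups, so the rate by chance here is not known. The same libraries share these flags, so they are not independent.

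The library labelled control-diet Ts65Dn 3, whose cholinergic markers were near 0, stood apart in its group by the summed Snord share (0.543%, next 0.101%) and by Snord15b (3261 CPM), Snord21 (690.7 CPM), Snord15a (171.3 CPM), Snord22 (113.7 CPM) and Snord55 (85.5 CPM).

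Control-diet 2N 4 stood apart by the summed share (0.0584%, next 0.0197%) and by Snord99 (195.6 CPM), Snord89 (138.5 CPM), Snord87 (55.7 CPM), Snord32a (25.5 CPM) and Snord12 (12.01 CPM), none of which is among the members by which control-diet Ts65Dn 3 stood apart. Control-diet 2N 5 stood apart by Snord21 (11.7 CPM), supplemented 2N 4 by Snord32a (7.29 CPM) and supplemented Ts65Dn 6 by Snord99 (235.1 CPM).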

How the results depend on the processing

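No paired analysis was possible because the replicate numbers follow accession order and the labels pair no animals. The 3 higher calls for genotype on the control diet became 10 without a filter, 6 with DESeq2, 1 with the identifier prefix as a factor, and 0 without the low-complexity libraries, with the 2 groups alone (17 Snord genes tested), with limma-voom and with limma on log2(TPM + 1); leaving out single libraries gave 0 to 5. The 4 higher calls for genotype with supplementation became 11 without a filter, 7 without the low-complexity libraries, 10 with the 2 groups alone and 21 with DESeq2, and 10 higher and 1 lower without supplemented Ts65Dn 2 and 5 (chosen after seeing the data); limma-voom gave 1 lower, and leaving out single libraries 0 to 7 higher. For diet in Ts65Dn, from 0, there were 4 higher and 1 lower without a filter, 5 higher without the low-complexity libraries and 1 lower each with DESeq2, limma-voom, limma on TPM and without supplemented Ts65Dn 2 and 5, and single libraries gave 0 to 5 higher and 0 to 1 lower. For diet in 2N there was 1 lower without a filter and 1 with DESeq2. The interaction had 3 higher without a filter, 2 without the low-complexity libraries, 1 with DESeq2, 1 lower without supplemented Ts65Dn 2 and 5, and 0 to 2 higher without single libraries. Calls over all tested genes changed as well. For genotype on the control diet, 58 higher became 184 without a filter, 4 without the low-complexity libraries and 3 with the 2 groups alone. With supplementation, 33 became 169 without a filter, 56 without the low-complexity libraries and 88 with the 2 groups alone. For diet in Ts65Dn, 10 became 120 without a filter and 54 without the low-complexity libraries. In the interaction, 0 became 81 and 9. The cause of these changes was not tested, except that leaving out libraries or the filter changes what is tested. Mean summed shares were 0.542%, 1.96%, 0.460% and 3.37% of TPM (control-diet 2N and Ts65Dn, supplemented 2N and Ts65Dn), and, with mitochondrial rRNA left out of the total, 0.0228%, 0.173%, 0.0212% and 0.427%; without single libraries they were 0.00959% to 0.0207%, 0.0451% to 0.151%, 0.0162% to 0.0184% and 0.250% to 0.317%. Log2 values that changed sign were small or from sparse counts: for genotype on the control diet, Snord90 (−0.18) was 1.29 with limma-voom and 0.70 with TPM, and −0.50 to 2.80 without single libraries, and Snord118 (−0.06) was 0.18 without the low-complexity libraries and 0.12 with limma-voom, and −1.32 to 1.17 without single libraries. For diet in Ts65Dn, Snord111 (−0.65) was 0.063 with the prefix as a factor. Snord35a was −1.35 to 3.03 for diet in 2N without single libraries, and in the interaction (−1.33) 5.68 without the low-complexity libraries, 2.80 with limma-voom, 1.61 with TPM, and −2.68 to 5.46 without single libraries. The median of all genes moved by over 0.1 in some comparisons with limma-voom (to −0.17 for genotype on the control diet), TPM (to −0.40 for genotype with supplementation) and the prefix as a factor (to 0.05 for diet in 2N), and in the interaction without a filter (to 0.33) and without supplemented 2N 2 (to 0.25) or 3 (to 0.23).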
